A study of Mus musculus with 11 samples.

Results

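The endothelial and mural cell genes are 35 genes that mark the cells of blood vessels, looked up by gene symbol among the 39017 genes of the deposited table, which held exactly 1 row for each. Endothelial cells, which line the vessel, are represented by 23 genes, and mural cells, which wrap it, by 8 pericyte and 4 smooth muscle genes. RNA of spinal cord microglia was sequenced from 5 Kdm6a cKO samples (cKO2, cKO4, cKO5, cKO6 and cKO7) and 6 WT samples (WT8, WT9, WT13, WT15, WT16 and WT17), all from healthy female C57BL/6 mice. Both groups carried the RiboTag allele, which puts a tag on ribosomes in cells where Cre has acted, together with Tmem119-Cre/ERT2, a tamoxifen-dependent Cre driven from a gene that microglia express. The cKO mice in addition lost Kdm6a, which codes for a histone demethylase and sits on the X chromosome, through that Cre. The labels state neither age, tamoxifen dose nor batch. They also leave unsaid whether the samples are separate animals, and the p-values therefore rest on the spread among samples, which may be technical.

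Vessels of the central nervous system are built from endothelial cells joined by adhesion proteins such as Pecam1, Cdh5 and Esam into the blood-brain barrier. Pericytes sit on the capillaries inside a shared basement membrane and are held there by signalling through the receptor Pdgfrb, while smooth muscle cells with contractile proteins surround arteries and arterioles. Endothelial growth and quiescence depend on receptors for VEGF (Kdr and Flt1), for angiopoietins (Tek, with its partner Tie1) and for BMP9 and BMP10 (Eng as co-receptor), and on transcription factors of the ETS and SOX families. All of these cells are distinct from microglia, whose RNA the labels give as the material sequenced.

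The stretches of 250 bases just upstream of the transcription start are shown for 5 members on which the results below turn. Eng was the most abundant, Kdr was called lower in cKO, and Flt1, Slco1a4 and Rgs5 were highest by far in WT13. The sequences are those of RefSeq on GRCm38.p6, written 5′ to 3′ on the strand of the gene, which lies on the + strand for Eng and Rgs5 and on the - strand for Kdr, Flt1 and Slco1a4. They span chr2:32646345-32646594 (Eng), chr5:75978456-75978705 (Kdr), chr5:147726012-147726261 (Flt1), chr6:141856221-141856470 (Slco1a4) and chr1:169655251-169655500 (Rgs5). Capitals mark the ETS motif AGGAAG on either strand.

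Eng: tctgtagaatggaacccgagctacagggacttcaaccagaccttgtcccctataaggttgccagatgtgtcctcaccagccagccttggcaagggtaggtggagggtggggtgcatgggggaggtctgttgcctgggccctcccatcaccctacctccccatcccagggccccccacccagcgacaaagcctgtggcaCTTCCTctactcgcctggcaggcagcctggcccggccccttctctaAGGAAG

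Kdr: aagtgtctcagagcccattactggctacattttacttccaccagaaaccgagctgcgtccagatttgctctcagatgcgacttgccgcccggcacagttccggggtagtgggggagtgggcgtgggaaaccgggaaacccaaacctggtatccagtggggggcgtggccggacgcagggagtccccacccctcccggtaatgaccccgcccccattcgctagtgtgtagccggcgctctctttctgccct

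Flt1: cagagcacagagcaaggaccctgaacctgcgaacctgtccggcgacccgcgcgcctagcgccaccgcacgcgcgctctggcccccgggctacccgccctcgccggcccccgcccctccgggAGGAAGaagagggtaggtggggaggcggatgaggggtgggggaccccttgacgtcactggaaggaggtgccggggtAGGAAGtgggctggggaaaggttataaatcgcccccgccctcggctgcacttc

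Slco1a4: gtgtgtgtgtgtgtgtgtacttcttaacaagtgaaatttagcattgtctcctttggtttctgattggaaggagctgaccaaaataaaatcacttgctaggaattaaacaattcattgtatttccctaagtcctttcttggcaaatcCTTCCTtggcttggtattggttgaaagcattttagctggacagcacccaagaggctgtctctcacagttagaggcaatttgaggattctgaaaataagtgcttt

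Rgs5: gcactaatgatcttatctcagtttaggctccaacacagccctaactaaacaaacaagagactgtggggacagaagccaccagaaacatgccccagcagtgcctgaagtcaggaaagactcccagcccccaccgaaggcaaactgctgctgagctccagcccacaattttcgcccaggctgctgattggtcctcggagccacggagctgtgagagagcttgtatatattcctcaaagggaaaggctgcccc

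RefSeq promoters were matched for 22 of the 35 members, in 29 windows. AGGAAG, the core bound by ETS factors such as Erg and Fli1, was found on 1 or the other strand in 16 of the 29 windows (55.2%), against 29.5% of the 32851 windows of all genes. The windows shown for Eng and Flt1 held 2 matches each, that of Slco1a4 held 1, and those of Kdr and Rgs5 held 0. The motif occurred in promoters of Eng and Abcg2, and in those of Flt1, Egfl7, Robo4, Slco1a4 and Tie1, which varied more among the WT libraries. AGATAA, read by GATA factors, was found in 10.3% of the member windows against 9.99% of all, and TGGGAA, read by the Notch effector Rbpj, in 24.1% against 21.6%. An AGGAAG match can run on into an AGATAA match through a shared AG. The CArG box, read by serum response factor in smooth muscle genes, was found in 0 of the 29 member windows and in 1.47% of all. A match is a run of letters in these windows and no evidence that a factor binds there.

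Library totals ran from 28620584 to 40943004 counts, and levels are given as CPM, which put the counts of all libraries on the same total by TMM factors. Among small counts, those from 1 to 200, even numbers took 73.5 to 83.9% in the individual libraries, so a single fragment may have been counted as 2 reads. Limits given for genes at 0 counts cover counting error only, whereas the intervals of fold changes come from the edgeR fit and include the spread among samples. The libraries did not match one another within sampling noise, the nearest pair being WT8 and WT15 (chi-square 17.73 per gene). Kdm6a, over the whole gene, was at 6.39, 7.31, 7.73, 6.29 and 3.80 CPM in the cKO libraries, against 12.03, 10.4, 7.46, 7.24, 10.4 and 10.1 CPM in the WT libraries. The groups overlapped, and the log2 fold change of -0.61 (SE 0.25) did not pass (edgeR adjusted p = 0.193). The labels do not name the deleted exons. The 11 microglia markers with enough counts were present in every library, with summed levels of 27609 to 29838 CPM in cKO and 20302 to 25768 CPM in WT. WT13, WT16 and WT17 stood apart: they had the 3 lowest microglia sums and the 3 highest neuron marker sums, 2430, 1985 and 2920 CPM against 1171 to 1469 CPM in the other 8 libraries. Results that rest on them are therefore also given without them.

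All 35 members had counts in at least 1 library, but only Eng, Pecam1 and Abcg2 exceeded 10 CPM in every library. Divided by exon length, Eng was the most abundant member at 34.0 CPM per kb over the 11 libraries. Vtn, a matrix protein made by brain pericytes, followed at 9.82 CPM per kb, then Ly6a at 6.95, Pecam1 at 5.55, Abcg2 at 2.41 and Rgs5 at 1.89 CPM per kb. Among the genes often taken as defining for endothelium, Cdh5 was at 0.942, Flt1 at 0.851, Kdr at 0.511 and Vwf at 0.0988 CPM per kb. Pdgfrb, the defining receptor of pericytes, was at 1.15 CPM per kb. At the low end stood the smooth muscle genes Cnn1 and Myh11 at 0.0253 and 0.0227 CPM per kb. Eng, Pecam1 and Abcg2 are also known in cells outside endothelium, macrophages or platelets among them.

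**Figure D1:**
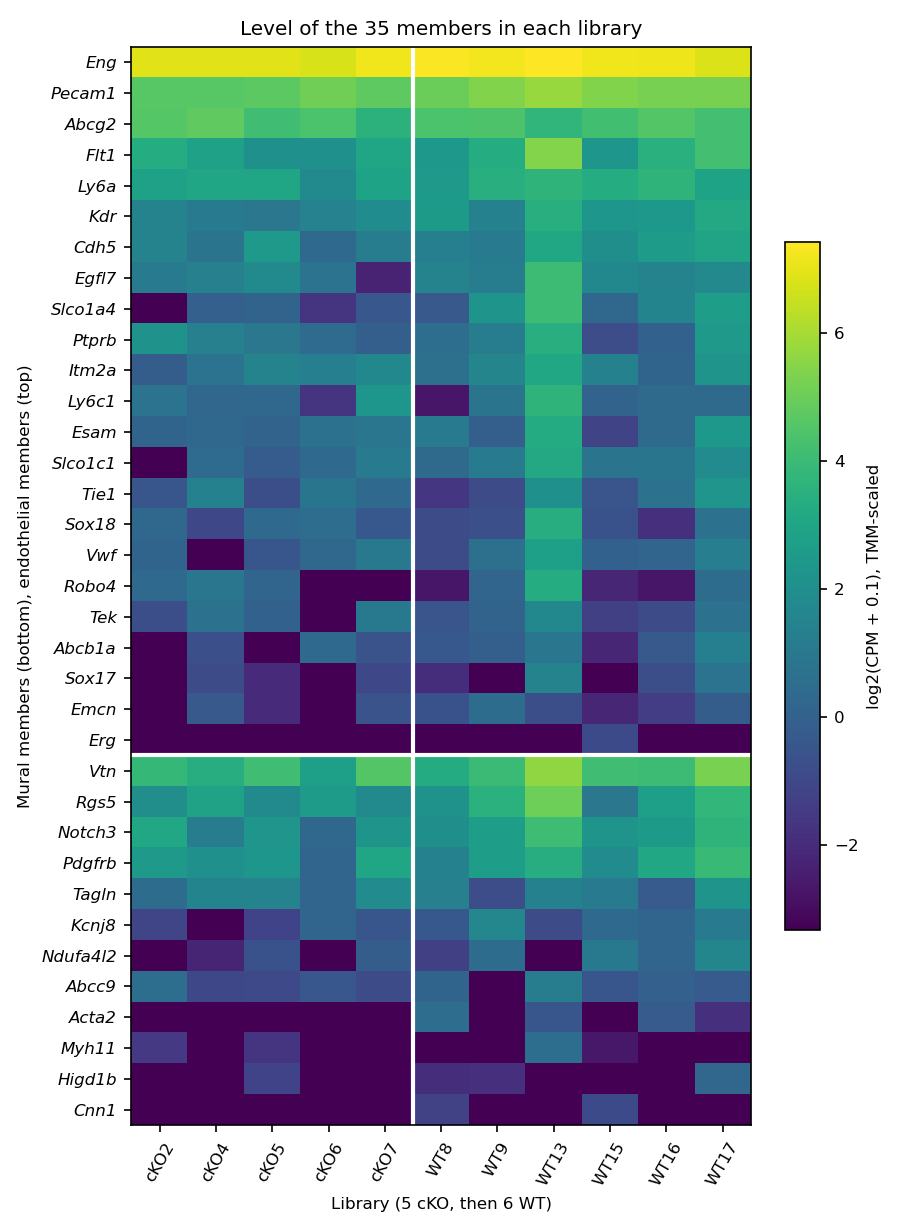
Level of each of the 35 members (rows, endothelial above the white line and mural below) in each of the 11 libraries (columns, 5 cKO then 6 WT), as log2 of TMM-scaled CPM plus a small constant. Eng, Pecam1 and Abcg2 vary less across the columns than the other members, whereas WT13 and, less so, WT17 are brighter than the rest for most other endothelial genes and for Vtn, Rgs5 and Notch3.

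The libraries differed more than the genotypes for most members. WT13 was the highest library for 22 of the 35 members and among the 2 highest for 26. WT17 was the highest for 6 and among the 2 highest for 22. Of the 30 members with enough counts to test, 70% were highest in WT13 and 16.7% in WT17, beside 15.7% and 16.1% of all 16025 genes tested. Among cKO libraries, cKO4 alone was the highest for any member, Abcg2. Sox18, a transcription factor of endothelial cells, was in WT13 at 19.7 times the median of the other WT libraries, Ly6c1 at 10.2 times, Esam at 7.96 times, Egfl7 at 5.97 times and Rgs5 at 5.10 times. For Eng the same ratio was 1.17, for Pecam1 1.43 and for Abcg2 0.646. The coefficient of variation among the 6 WT libraries was 12.8% for Eng, 17.7% for Pecam1 and 18.1% for Abcg2, against 93.5% for Flt1, 160% for Ly6c1 and 175% for Sox18.

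The comparison of cKO with WT asks whether vascular RNA in these samples differs when microglia lack Kdm6a. Two-sided edgeR quasi-likelihood tests were read from the fit of all 16025 genes tested, of which 687 passed an adjusted p of 0.05 (4.29%), 298 higher in cKO (1.86%) and 389 lower (2.43%). Of the 35 members 30 had enough counts to enter, 22 of 23 endothelial, 7 of 8 pericyte and 1 of 4 smooth muscle. Pecam1 and Kdr, 2 of the 22 endothelial members tested, fell in cKO, beside the 2.43% of all genes that did so. Of all members tested, 0 rose. No mural member passed in edgeR, nor had any an unadjusted p under 0.05, and DESeq2 and limma voom also called 0, though DESeq2 gave no adjusted p for Kcnj8, Abcc9 and Ndufa4l2. In 0 of the members did every cKO library lie below every WT library, beside 1.99% of all genes tested, or above, beside 2.17%. In these bulk samples, fewer vascular cells, less RNA per cell and less vascular RNA carried along with microglial RNA cannot be told apart. Nor can a change in other cells, microglia among them, for members such as Pecam1 that are not restricted to endothelium.

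Of the 22 endothelial members tested, 21 had a log2 fold change below 0, with a median of -1.13, and 7 of the 8 mural members, with a median of -0.87. Over all genes tested 51.6% lay below 0 and the median was -0.01. Without WT13 the endothelial median was -0.44 and the mural median -0.63. Without WT13, WT16 and WT17 the medians were -0.09 and -0.11, with 12 of 21 endothelial and 4 of 8 mural members below 0. These medians describe the members that had enough counts, which these libraries partly decide: Sox17 had too few counts to be tested when WT13, WT16 or WT17 was left out.

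**Figure D2:**
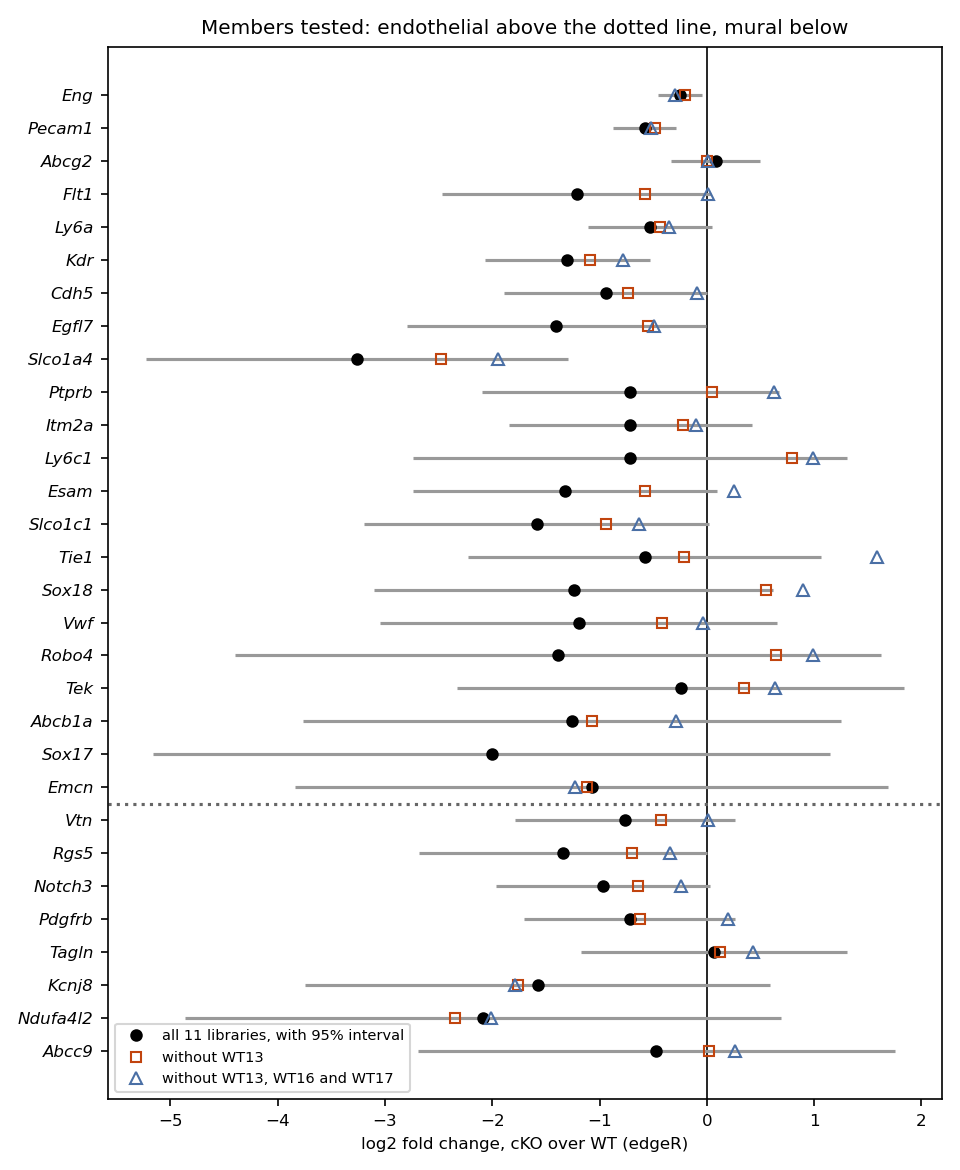
Log2 fold change of cKO over WT from edgeR (x axis) for the 30 members tested (rows, endothelial above the dotted line, mural below). Filled circles with 95% intervals use all 11 libraries, open squares leave out WT13 and open triangles leave out WT13, WT16 and WT17. Eng, Pecam1 and Abcg2 hardly move, while Flt1 and Vtn reach 0.01 without the 3 libraries and Tie1 reaches 1.58.

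Junction genes. Pecam1 encodes an adhesion molecule (CD31) of endothelial contacts that platelets and leukocytes carry too, and lies on chromosome 11 from 106654217 to 106750628 (mm10). Its level was 24.5, 24.6, 26.4, 33.8 and 26.8 CPM in the cKO libraries, against 32.4, 41.7, 53.4, 42.2, 36.8 and 37.5 CPM in the WT libraries. All cKO libraries except cKO6 lay below all WT libraries, and cKO6 exceeded WT8 alone. The means were 27.2 ± 3.82 CPM in cKO (SD, n = 5) and 40.7 ± 7.22 CPM in WT (SD, n = 6), with a log2 fold change of -0.58 (SE 0.14, 95% interval -0.87 to -0.29, edgeR adjusted p = 0.0174). Pecam1 thus fell by a margin larger than the SD of either group, although the groups overlapped. Without WT13 it was at -0.49 and still passed (edgeR adjusted p = 0.0388). Omitting cKO2, cKO4 or cKO5 took it past the threshold (edgeR adjusted p = 0.0521, 0.0568 and 0.0516), as did omitting WT13, WT16 and WT17 together, at -0.52 (edgeR adjusted p = 0.0669). Its size in these fits stayed between -0.67 and -0.49.

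Cdh5, the VE-cadherin of adherens junctions, was at 2.68, 1.67, 5.39, 1.17 and 2.27 CPM in cKO, against 2.37, 1.99, 8.52, 4.03, 5.92 and 7.56 CPM in WT. WT13, WT16 and WT17 were above every cKO library, and the others lay among them. Its log2 fold change of -0.94 (SE 0.46) did not pass (edgeR adjusted p = 0.273) and was -0.09 without those libraries. Esam, an adhesion molecule of tight junctions, was at 0.980 to 1.76 CPM in cKO, against 0.367 to 9.71 CPM in WT. Its 2 highest libraries were WT13 at 9.71 CPM and WT17 at 5.12 CPM. The log2 fold change was -1.32 (SE 0.68, edgeR adjusted p = 0.316) with all libraries and 0.25 without WT13, WT16 and WT17.

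Receptors. Kdr (VEGFR2), the main signalling receptor for VEGF-A, lies on chromosome 5 from 75932827 to 75978458. It was at 2.68, 2.07, 1.82, 2.63 and 3.60 CPM in the cKO libraries, against 5.68, 2.56, 10.6, 4.89, 5.23 and 8.95 CPM in the WT libraries. All WT libraries but WT9 were above every cKO library, and WT9 lay within the cKO range. The means were 2.56 ± 0.687 CPM in cKO (SD, n = 5) and 6.32 ± 2.93 CPM in WT (SD, n = 6), and Kdr fell by 1.30 on the log2 scale (SE 0.37, 95% interval -2.07 to -0.53, edgeR adjusted p = 0.0466). This call sat at the threshold and was lost in 12 of 18 alternatives, among them the omission of any of the 5 cKO libraries or of WT8, WT13, WT16 or WT17. Without WT13 the log2 fold change was -1.09 (edgeR adjusted p = 0.116) and without WT13, WT16 and WT17 it was -0.78 (SE 0.44, edgeR adjusted p = 0.568).

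Flt1 (VEGFR1), which binds VEGF with high affinity and limits what reaches Kdr, was at 10.0, 7.03, 4.06, 4.09 and 8.17 CPM in cKO, against 5.18, 9.86, 43.3, 4.83, 11.2 and 18.6 CPM in WT. WT13 alone was more than 4 times the highest cKO library, and WT8, WT9 and WT15 lay within the cKO range. The log2 fold change was -1.21 (SE 0.57, edgeR adjusted p = 0.293), -0.57 without WT13 and 0.01 (SE 0.35) without WT13, WT16 and WT17. The 2 VEGF receptors therefore shared their highest libraries but differed in WT8 and WT15, where Kdr was above the cKO libraries and Flt1 was not.

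Eng (endoglin), on chromosome 2 from 32646595 to 32682669, was at 121, 123, 123, 110.0 and 147 CPM in cKO, against 163, 149.9, 171, 147, 143 and 116 CPM in WT. All cKO libraries but cKO7 lay below all WT libraries but WT17, which itself was within the cKO range. The means were 125 ± 13.7 CPM in cKO (SD, n = 5) and 148 ± 19.0 CPM in WT (SD, n = 6). The log2 fold change of -0.25 (SE 0.10, 95% interval -0.45 to -0.04) did not pass (edgeR adjusted p = 0.174), and was -0.30 once WT13, WT16 and WT17 were omitted (edgeR adjusted p = 0.0825). It passed only when libraries were scaled by their totals (-0.33, edgeR adjusted p = 0.0473), a scaling that moved the median of all genes tested to -0.10.

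The angiopoietin receptors were low. Tek (Tie2) was at 0 to 1.93 CPM in cKO, against 0.306 to 3.11 CPM in WT, and its partner Tie1 at 0.490 to 2.53 CPM in cKO, against 0.223 to 4.70 CPM in WT. Ptprb, the phosphatase that restrains Tek, was at 0.851 to 4.30 CPM in cKO, against 0.489 to 10.7 CPM in WT. Robo4, a guidance receptor that stabilises vessels, was at 0 CPM in cKO6 and cKO7 and reached 1.79 CPM in cKO4, against 0.056 to 10.1 CPM in WT. For each of the 4 genes WT13 or WT17 was the highest library, and none passed, with log2 fold changes of -0.25 for Tek, -0.58 for Tie1, -0.71 for Ptprb and -1.39 for Robo4. Without WT13, WT16 and WT17 all 4 lay above 0, at 0.63, 1.58, 0.63 and 0.99 in the same order, with no call.

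**Figure D3:**
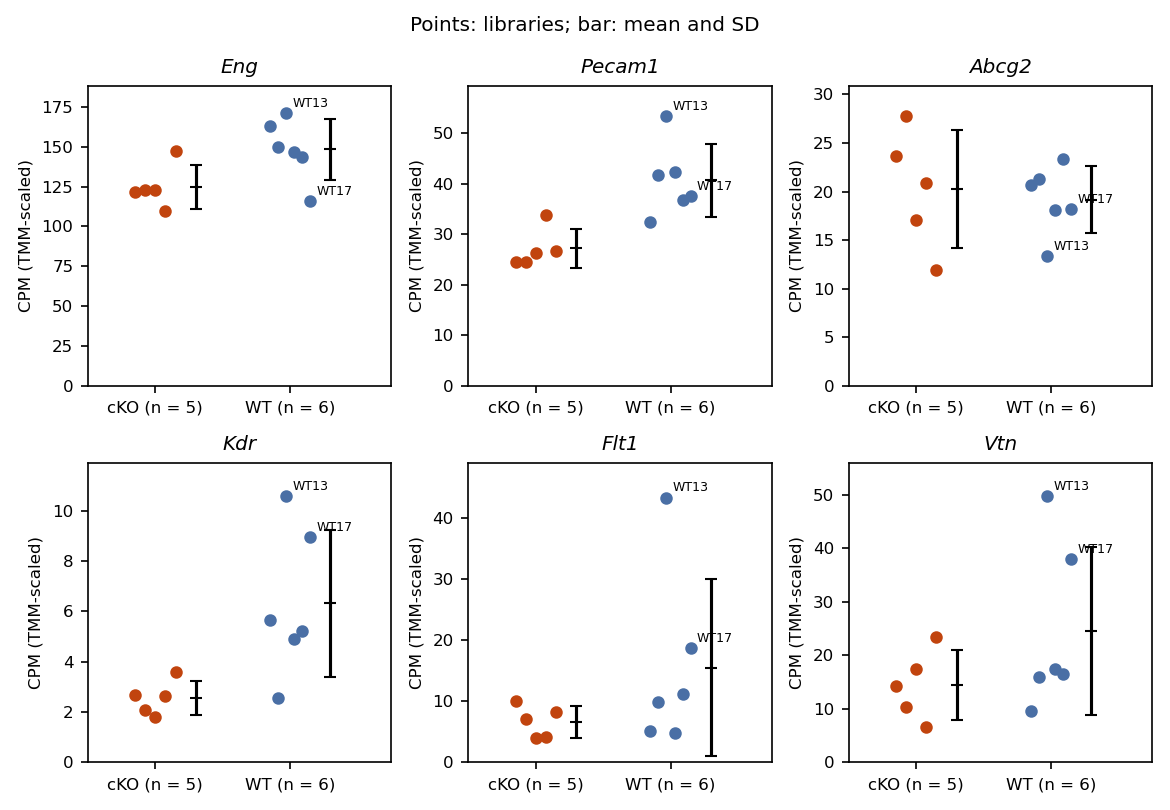
TMM-scaled CPM (y axis, linear from 0) of Eng, Pecam1, Abcg2, Kdr, Flt1 and Vtn in each cKO and WT library, with WT13 and WT17 labelled. Bars give the mean and SD (n = 5 cKO, n = 6 WT). For Pecam1 a single cKO library reaches above the lowest WT library, whereas the WT mean of Flt1 and Vtn is carried by WT13 and WT17.

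Transporters of the barrier. Abcg2, an efflux pump of brain endothelium and of other cells, was at 23.7, 27.8, 17.1, 20.9 and 11.9 CPM in cKO, against 20.7, 21.2, 13.4, 18.1, 23.4 and 18.2 CPM in WT. The groups overlapped over most of their range, and WT13 was the lowest WT library, the reverse of its place for most members. The log2 fold change was 0.08 with a 95% interval of -0.33 to 0.50 (SE 0.20, edgeR adjusted p = 0.896). Slco1a4, an organic anion transporter of the barrier on chromosome 6 from 141805440 to 141856199, was at 0, 0.893, 0.98, 0.219 and 0.652 CPM in cKO, against 0.696, 4.56, 16.4, 1.10, 2.79 and 6.23 CPM in WT. All WT libraries except WT8 were above all cKO libraries. It had the most negative log2 fold change of the members tested, -3.26 (SE 0.92, 95% interval -5.23 to -1.29), which missed the threshold in edgeR (adjusted p = 0.0606) and passed in DESeq2 (adjusted p = 0.000573). It also passed in edgeR without WT8 (adjusted p = 0.025) or WT15 (adjusted p = 0.0291), and was at -1.95 (SE 1.09, edgeR adjusted p = 0.558) without WT13, WT16 and WT17.

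Slco1c1, a thyroxine transporter, ranged from 0 CPM in cKO2 to 2.04 CPM in cKO7, against 1.23 CPM in WT8 to 8.88 CPM in WT13. With a log2 fold change of -1.59 it did not pass (SE 0.77, edgeR adjusted p = 0.281), and it was at -0.63 without WT13, WT16 and WT17. Abcb1a (P-glycoprotein) was at 0 in cKO2 and cKO5 and at most 1.17 CPM in cKO6, against 0.122 to 2.41 CPM in WT, and did not pass (-1.26, SE 1.21, edgeR adjusted p = 0.665). Slco1c1 and Slco1a4 lie 235 kb apart on chromosome 6. Reads of Abcb1a can be shared with its near copy Abcb1b, and those of Slco1a4 with its family, so both levels are uncertain.

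Surface, secreted and nuclear proteins. Ly6a (Sca-1), a surface protein of endothelial cells, was the next most abundant endothelial member by length after Eng, with 3.44 to 8.18 CPM in cKO and 5.29 to 12.7 CPM in WT. Its log2 fold change of -0.53 (SE 0.28, edgeR adjusted p = 0.329) was -0.35 without WT13, WT16 and WT17, and its highest library was WT16. Ly6c1, 46 kb away on chromosome 15, behaved otherwise: WT13 reached 12.4 CPM, while cKO libraries ranged from 0.219 to 4.88 CPM and the other WT libraries from 0.056 to 1.65 CPM. It was at -0.72 on the log2 scale with all libraries and 0.80 without WT13, with no call in either case, and reads may be shared with Ly6c2. Itm2a, a membrane protein of brain endothelium, was at -0.71 and the sialomucin Emcn, which averaged 0.280 CPM in cKO and 0.596 CPM in WT, at -1.07, neither passing (edgeR adjusted p = 0.550 and 0.762).

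Egfl7, a secreted endothelial factor, was at 16.3 CPM in WT13, against 0.113 to 3.36 CPM in cKO and 2.17 to 3.20 CPM in the other WT libraries. Its log2 fold change was -1.40 (SE 0.66, edgeR adjusted p = 0.270) and -0.55 without WT13. Exons of Egfl7 overlap those of other genes, so its counts are uncertain. Von Willebrand factor (Vwf), stored by endothelial cells for haemostasis, was at 0 to 1.93 CPM in cKO, against 0.446 to 6.59 CPM in WT (-1.20, SE 0.89, edgeR adjusted p = 0.538). Of the transcription factors, Sox18 was at 0.403 to 1.32 CPM in cKO, against 0.174 to 1.53 CPM in the WT libraries other than WT13, which reached 10.1 CPM. Sox17, which acts in arterial endothelium, was at 0 in 4 libraries, 2 of each genotype, and highest in WT13 at 2.66 CPM. Erg had 14 counts, all in WT15, and its 10 nearest protein-coding genes had a median of only 19.5 counts, so no level was read from it.

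Pericyte genes. Vtn, on chromosome 11 from 78499091 to 78502324, was at 14.3, 10.4, 17.5, 6.58 and 23.4 CPM in cKO, against 9.52, 15.9, 49.7, 17.5, 16.4 and 37.9 CPM in WT. WT13 and WT17 were above every cKO library and the other 4 WT libraries lay within the cKO range. For Vtn the log2 fold change was -0.76 (SE 0.46, edgeR adjusted p = 0.445) and 0.01 (SE 0.31) without WT13, WT16 and WT17. Rgs5, a regulator of G protein signalling abundant in pericytes, on chromosome 1 from 169655501 to 169695813, was at 3.87, 7.14, 3.36, 5.78 and 3.35 CPM in cKO, against 4.34, 11.7, 33.2, 1.83, 6.50 and 13.7 CPM in WT. WT9, WT13 and WT17 were above every cKO library, and WT15 was below all of them. The log2 fold change of Rgs5 was -1.34 (SE 0.61, edgeR adjusted p = 0.275) and -0.35 without WT13, WT16 and WT17.

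Pdgfrb was at 5.39, 4.15, 4.97, 1.02 and 7.83 CPM in cKO, against 2.56, 6.15, 10.2, 3.52, 8.30 and 15.4 CPM in WT, with WT17 rather than WT13 the highest. Notch3, the Notch receptor of mural cells, was at 1.10 to 8.64 CPM in cKO, against 4.01 to 16.8 CPM in WT. Neither passed, at -0.72 for Pdgfrb (SE 0.47, edgeR adjusted p = 0.464) and -0.97 for Notch3 (SE 0.47, edgeR adjusted p = 0.290). Kcnj8 and Abcc9 encode the pore and the sulphonylurea receptor of the pericyte potassium channel and lie 16.2 kb apart on chromosome 6. Kcnj8 was highest in WT9 at 3.08 CPM and low in WT13 at 0.458 CPM, whereas Abcc9 was at 0 in WT9 and highest in WT13 at 2.24 CPM. Kcnj8 averaged 0.474 CPM in cKO and 1.42 CPM in WT (-1.57, SE 1.05, edgeR adjusted p = 0.470). Ndufa4l2, a hypoxia-responsive mitochondrial protein found in pericytes, was at 0 in WT13 as well as in cKO2 and cKO6, and averaged 0.294 CPM in cKO and 1.26 CPM in WT (-2.08, SE 1.34, edgeR adjusted p = 0.452). Of the members tested, Kcnj8, Ndufa4l2, Tagln, Abcg2 and Emcn were those for which WT13 was not among the 3 highest libraries. Higd1b had 10 counts in cKO and 50 in WT and was not tested.

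Smooth muscle genes. Tagln (SM22), an actin-binding protein, was the smooth muscle member with enough counts to test, and had 1.31, 2.79, 2.66, 1.02 and 3.52 CPM in cKO, against 2.45, 0.484, 2.56, 2.08, 0.755 and 4.62 CPM in WT. The groups overlapped throughout and the log2 fold change was 0.07 with an interval of -1.17 to 1.30 (SE 0.60, edgeR adjusted p = 0.976). Its exons overlap those of Pcsk7, so its counts are uncertain. Acta2, the smooth muscle actin, had 0 counts in all cKO libraries, which allows up to 0.019 CPM over the group. That limit takes each count as a separate fragment and is higher if fragments were counted as 2 reads. In the WT libraries Acta2 had 48, 0, 28, 0, 26 and 6 counts, a mean of 0.484 CPM, and it was at 0 in WT9 and WT15. Calponin (Cnn1) had 0 counts in cKO and 26 in WT, all in WT8 and WT15, and smooth muscle myosin (Myh11) had 14 counts in cKO and 62 in WT, 60 of them in WT13. Apart from Tagln, the smooth muscle members were at or near 0 in both groups.

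Endothelial against mural genes. Summed over the 23 endothelial members, the level was 206, 213, 202, 190 and 228 CPM in cKO, against 248, 261, 435, 244, 255 and 260 CPM in WT. Every cKO sum lay below every WT sum, and the cKO mean was 0.732 of the WT mean, 0.820 without WT13 and 0.828 without WT13, WT16 and WT17. Eng, Pecam1 and Abcg2 made up most of that sum, at 172 ± 8.57 CPM in cKO (SD, n = 5) and 208 ± 21.5 CPM in WT (SD, n = 6). The other 20 endothelial members summed to 36.5, 37.8, 35.3, 25.0 and 42.1 CPM in cKO, against 31.2, 48.1, 197, 37.0, 51.4 and 87.8 CPM in WT. These sums overlapped. Their cKO mean was 0.469 of the WT mean with all libraries, 0.692 without WT13 and 0.912 without WT13, WT16 and WT17, and WT13 supplied 43.5% of the WT total.

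The 12 mural members summed to 35.5, 27.2, 35.1, 17.2 and 44.6 CPM in cKO, against 26.7, 45.2, 117, 33.7, 41.5 and 91.2 CPM in WT. WT13 and WT17 again were above every cKO library, and the other 4 WT libraries lay among or next to them. The cKO mean was 0.539 of the WT mean, 0.670 without WT13 and 0.907 without the 3 libraries, close to the ratios of the other 20 endothelial members. The log2 ratio of the mural sum to the sum of those 20 was -0.20 ± 0.29 in cKO and -0.24 ± 0.28 in WT (SD, n = 5 and 6), a difference of 0.05. Against all 23 endothelial members the log2 ratio was -2.77 ± 0.45 in cKO and -2.44 ± 0.63 in WT. Its difference of -0.33 was within 1 SD of the libraries, lay between -0.49 without WT8 and -0.15 without WT17, and turned to 0.10 without WT13, WT16 and WT17. Within WT the ratio to all 23 was highest in WT17 at -1.51 and in WT13 at -1.89, and the ratio to the 20 was lowest in WT13 at -0.75.

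**Figure D4:**
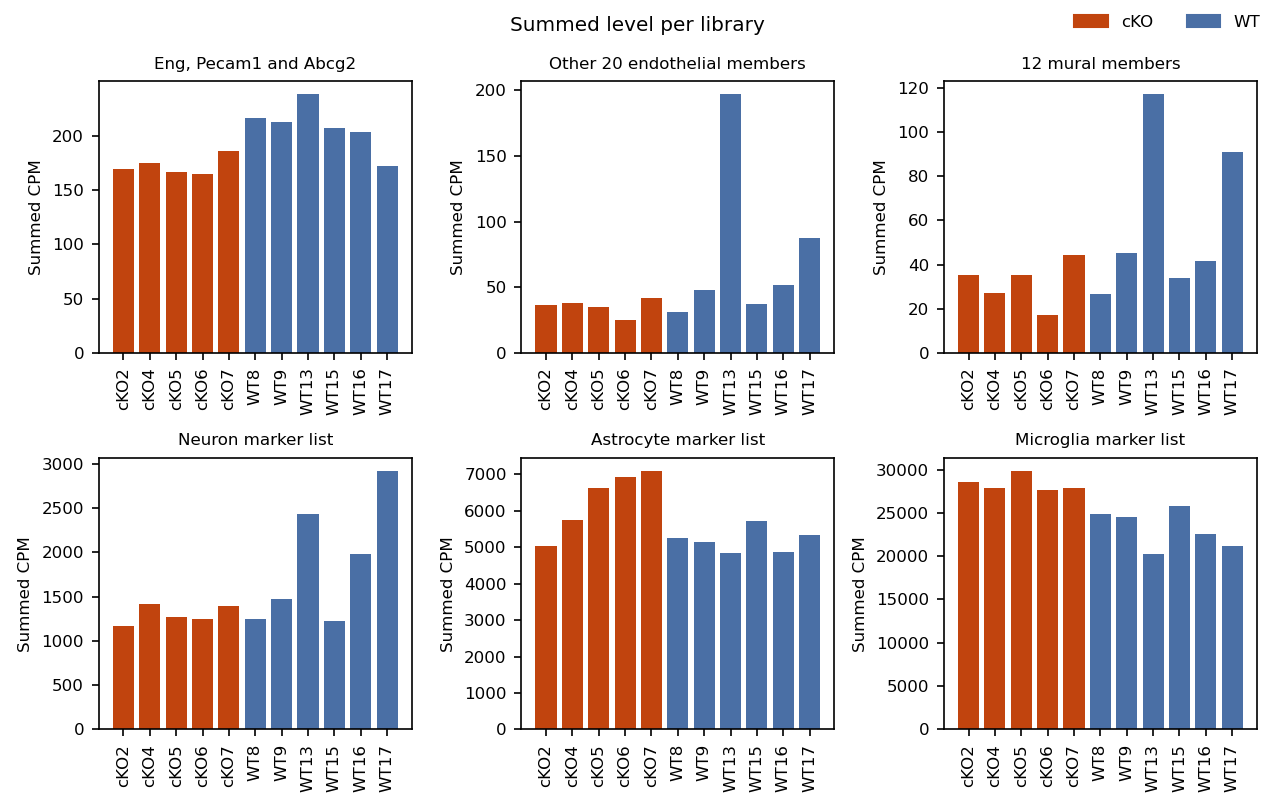
Summed TMM-scaled CPM (y axes from 0) per library for Eng, Pecam1 and Abcg2, for the other 20 endothelial members, for the 12 mural members, and for the neuron, astrocyte and microglia marker lists, with cKO libraries left of WT libraries. WT13 and WT17 are high for the 20 endothelial members (197 and 87.8 CPM), for the mural members (117 and 91.2 CPM) and for neuron markers, while WT16 is high for neuron markers only (1985 CPM).

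The neuron list moved with the vascular sums in WT13 and WT17. WT16 was at 1985 CPM for neuron markers, above every cKO library, yet its vascular sums of 51.4 CPM for the 20 endothelial and 41.5 CPM for the mural members were near those of WT9 at 48.1 and 45.2 CPM. Oligodendrocyte markers summed to 4904 to 5638 CPM in cKO and 4828 to 6259 CPM in WT, with WT17 and WT13 the highest. Astrocyte markers summed to 5045 to 7095 CPM in cKO and 4828 to 5721 CPM in WT, with WT13 the lowest of all. Fibroblast markers were at 320 to 632 CPM in cKO and 347 to 549 CPM in WT. The part of these other cell types in the differences of the vascular genes was not tested. Lyve1 and Pf4, of border macrophages, and Ly6c2 and Ppbp, of blood cells, were at 0 in every library. The border macrophage list summed to 681 to 787 CPM in cKO and 502 to 697 CPM in WT. Of its 10 genes, 4 had enough counts to test. Its sum was lowest in WT13 and then WT17, as was the microglia sum, and does not say that border macrophages were present. The blood cell list, of which 6 of 16 genes were tested, summed to 46.4 to 59.0 CPM in cKO and 63.2 to 90.2 CPM in WT. Its means of 51.9 CPM in cKO and 73.95 CPM in WT differed by less than those of Gp9 alone, given below. Without Gp9 the list mean was not lower in cKO.

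Further genes of the vessel were read from the same fit, in lists chosen with earlier results of these data known. Of 12 vascular ligands tested, Angpt2, the Tek ligand that destabilises vessels, was called lower: it was at 0 in every cKO library, and at 0.223 to 1.51 CPM in WT (mean 0.712 CPM, edgeR adjusted p = 0.0283). Its fitted fold depends on the prior count and is not given. It missed the threshold when any cKO library was left out (edgeR adjusted p = 0.0542 to 0.0687). DESeq2 gave it no adjusted p, and it had too few counts to be fitted in 7 of 18 alternatives, the omission of WT13, WT16 and WT17 among them. The ligands summed to 433 ± 31.6 CPM in cKO and 433 ± 27.6 CPM in WT (SD, n = 5 and 6), with a median log2 fold change of -0.03.

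Of 11 Notch genes tested, Nrarp, a target and feedback regulator of Notch, fell in cKO. It was at 10.7, 15.9, 15.5, 14.3 and 14.4 CPM in cKO, against 30.0, 33.8, 37.4, 27.8, 23.6 and 30.2 CPM in WT, so that the groups did not overlap. On the log2 scale the fold change was -1.11 (SE 0.16, edgeR adjusted p = 0.000123), and -1.12 once WT13, WT16 and WT17 were omitted (edgeR adjusted p = 0.000251). It passed in all 18 alternatives. All 11 Notch genes had a log2 fold change below 0 (median -0.45), against 6 of 11 without WT13, WT16 and WT17 (median -0.10). Of 14 genes of arterial, capillary or venous identity, Efnb2, the arterial ephrin, rose in cKO to 17.6, 8.52, 21.6, 15.6 and 20.1 CPM, against 4.34, 3.79, 7.65, 6.78, 3.66 and 6.74 CPM in WT. Every cKO library was above every WT library (log2 fold change 1.60, SE 0.27, edgeR adjusted p = 0.000624), and Efnb2 passed in all 18 alternatives. Of those 14 genes of arterial, capillary or venous identity, 10 lay below 0, with a median of -0.33 (-0.28 without WT13, WT16 and WT17). Neither Nrarp nor Efnb2 is restricted to endothelium, and bulk counts do not say which cells the RNA came from.

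Of 14 transcription factors tested, Ets1 rose to 326 ± 24.9 CPM in cKO, against 253 ± 28.8 CPM in WT (log2 fold change 0.36, SE 0.09, edgeR adjusted p = 0.0144), and was lost without cKO5 (leave-one-out range 0.32 to 0.40) and without WT13, WT16 and WT17 (0.23). Lef1, which carries the Wnt signal that maintains the barrier, was called lower (log2 fold change -5.11, edgeR adjusted p = 0.0304), with 0.315 CPM in cKO5 and 0 in the other cKO libraries, against 0.613, 1.31, 6.55, 0.428, 0.523 and 3.94 CPM in WT. Its highest libraries were again WT13 and WT17, and it was lost without either of them, without cKO2, cKO4, cKO6 or cKO7, and in limma voom (adjusted p = 0.0805). Without WT13, WT16 and WT17 Lef1 was at -3.59 (edgeR adjusted p = 0.520), and DESeq2 gave it no adjusted p. Of 31 junction and receptor partners, 4 rose and 0 fell: the catenins Ctnnd1 (0.41, SE 0.08) and Ctnnb1 (0.32, SE 0.07), the tight junction protein Ocln (1.27, SE 0.32) and Nrp2 (0.43, SE 0.12), the last named after its values were seen (edgeR adjusted p = 0.00181, 0.00692, 0.0249 and 0.0380). The catenins, which most cell types contain, passed in all 18 alternatives. Ocln was lost without cKO2, cKO4, cKO5 or cKO7 (1.13 to 1.46 over the leave-one-out fits) and Nrp2 in 10 alternatives. Without WT13, WT16 and WT17 neither passed, with Ocln at 0.99 and Nrp2 at 0.32 (edgeR adjusted p = 0.145 and 0.281).

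Of 16 further pericyte genes, Cspg4 (NG2), which oligodendrocyte precursors also express, fell by 1.09 on the log2 scale (SE 0.30, edgeR adjusted p = 0.0422), with 29.9 CPM in WT13 and 17.1 CPM in WT17 as its highest libraries. It was lost in 10 of 18 alternatives and was at -0.57 once WT13, WT16 and WT17 were omitted (edgeR adjusted p = 0.482). Of 14 further contractile genes, the focal adhesion protein Vcl fell by 0.71 (SE 0.19, edgeR adjusted p = 0.0356), and was at -0.36 without the 3 libraries (edgeR adjusted p = 0.559), with 9 of 18 alternatives losing it. Of 15 basement membrane genes, Sparc and the laminin Lamb2 rose (0.36, SE 0.08, and 0.62, SE 0.15, edgeR adjusted p = 0.0104 and 0.0217), and Sparc, abundant in microglia too, passed in all 18 alternatives, at 0.20 without WT13, WT16 and WT17. Lamb2 was lost without cKO5, cKO7 or WT16 (leave-one-out range 0.52 to 0.66). The medians of the pericyte, contractile and basement membrane lists, -0.41, -0.40 and -0.54, were 0.10, -0.07 and 0.02 without WT13, WT16 and WT17.

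The lists of other cells were as follows. Of 11 microglia markers 7 rose and 0 fell (median 0.33), against 5 higher without WT13 and 4 without WT13, WT16 and WT17 (median 0.19). In the fit of all libraries Siglech (0.56, SE 0.10), Olfml3 (0.59, SE 0.11) and Tmem119 (0.40, SE 0.09) had the smallest p. Each passed in all 18 alternatives, Tmem119 at 0.23 without the 3 libraries. Of 12 astrocyte markers Glul alone rose (0.47, SE 0.11, edgeR adjusted p = 0.0236), and it was lost in 8 alternatives, at 0.30 without the 3 libraries (edgeR adjusted p = 0.565). Of 6 blood cell markers tested the platelet glycoprotein Gp9 fell to 26.0 ± 3.41 CPM in cKO, against 52.1 ± 6.45 CPM in WT (log2 fold change -1.003, SE 0.13, edgeR adjusted p = 3.2e-05), without overlap and in all 18 alternatives. Bulk counts do not say which cells the Gp9 RNA came from, and Ppbp of the same list had no counts. edgeR called 0 of 14 neuron markers (Nefh -0.996, Nefm -0.43), 0 of 11 oligodendrocyte markers (Mbp -0.0004, Mobp 0.07), 0 of 6 Schwann cell markers (Pmp22 0.24, Sox10 -0.54), 0 of 12 fibroblast markers (Apod 0.20, Col15a1 -0.001) and 0 of 4 border macrophage markers (Maf 0.33, Stab1 0.18). At an unadjusted p under 0.05 there were 5, 2, 3, 0 and 1 genes in the same lists, DESeq2 called 2, 1, 1, 0 and 1, and limma voom called 0 in each.

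**Figure D5:**
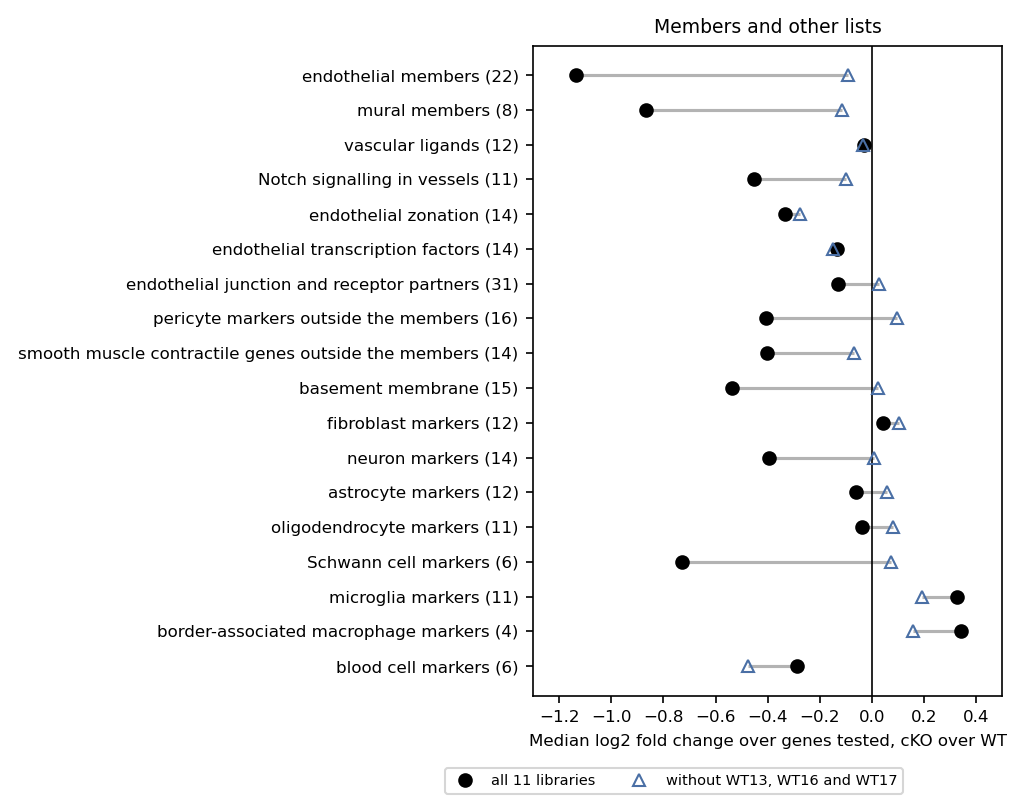
Median log2 fold change of cKO over WT (x axis) for the endothelial and mural members and for 16 other lists, with the number of genes tested in brackets, from all 11 libraries (filled circles) and without WT13, WT16 and WT17 (open triangles). The endothelial and mural medians of -1.13 and -0.87 are the farthest below 0 with all libraries and lie at -0.09 and -0.11 without the 3.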

How the data were processed

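RNA of spinal cord microglia from 5 Kdm6a cKO and 6 WT samples was sequenced. Per the labels' protocols, the RNA was extracted with a Direct-zol column kit, enriched for mRNA and turned into stranded KAPA libraries. Tools listed in the submitters' processing notes are bcl2fastq 2.17, FastQC and Trimmomatic, with mm10 as the build. What aligned and counted the reads, with which strand setting and annotation, is not given in the sources used here. Raw, unnormalized counts for each Ensembl gene and sample make up the table that the authors deposited.

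Symbols were matched through the gene name table, and coordinates and exon lengths come from GENCODE M21, which uses the mm10 assembly. Of 39017 genes, 16025 passed edgeR's filterByExpr at a minimum count of 10 and a minimum total of 15. Counts were tested in R 4.3.3 with edgeR 4.0.16 (TMM factors, robust quasi-likelihood F test, genotype as the only term, two-sided), with Benjamini-Hochberg adjustment over all genes tested and a threshold of 0.05. The SE was obtained as the ratio of the log2 fold change to the square root of F. CPM values use TMM-scaled library sizes. Alternatives were RLE factors, library totals, DESeq2 1.42.0, limma 3.58.1 voom, 2 other filters, leaving out each library, and leaving out WT13, WT16 and WT17. On counts simulated for this comparison (15511 genes, 192 changed), 58.5% of 2-fold and 76.5% of 4-fold changes were recovered, and 5.8% of the calls were false.

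The members and lists were chosen with earlier results of these data known. Named are all members, Kdm6a, and from each other list up to 3 genes past the threshold by smallest p or, with none, the 2 of highest mean CPM.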

Additional observations from a re-analysis of the deposited data

Results flagged for a closer look

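Within each genotype, a library stood apart where its gap to the nearest other library took an unusually large share of the group's range on the log2 CPM scale. The share had to pass Dixon's 95% critical value. This was so in 7 of the 66 groups examined, against 3.3 if the groups were independent and normally distributed. They are not independent, since the members share libraries and the sums hold the members. A library with no count takes a value set by the prior count. Pecam1, the junction gene that was called lower in cKO, was high in cKO6 (5.08, against 4.62 to 4.75 in the other cKO libraries, a share of 0.729). Ly6a, the surface protein Sca-1, was low in the same library (1.81 against 2.81 to 3.04, 0.812). The thyroxine transporter Slco1c1 was low in cKO2, where it had no count (-4.09 against -0.27 to 1.07, 0.74). The secreted factor Egfl7 was low in cKO7 (-2.54 against 0.74 to 1.77, 0.76). In WT, Egfl7 was high in WT13 (4.03 against 1.15 to 1.70, 0.809). The potassium channel subunit Abcc9 was low in WT9, where it had no count (-4.09 against -0.51 to 1.20, 0.676). The log2 of the summed CPM of the 23 endothelial members was high in WT13 (8.76 against 7.93 to 8.03 in the other WT libraries, 0.884).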

How the results depend on the processing

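Of the 30 members tested, 26 passed in no setting. Over 519 alternative fits of single members that gave an adjusted p, 471 kept their direction and their side of the threshold, 16 lost a call, 4 gained a call and 28 turned direction. The cause of these changes was not tested. Library totals in place of TMM factors gave 601 genes lower and 203 higher over all genes, and turned Abcg2 to -0.00034, Tagln to -0.025 and Mobp to -0.019. DESeq2 gave 683 lower and 479 higher. limma voom gave 1 endothelial member lower and turned Ly6c1 to 0.034, Abcc9 to 0.22, Col15a1 to 0.024 and Mbp to 0.0051, and the unfiltered fit also gave 1. Without Pecam1, Eng and Abcg2, a choice made after the data were seen, 1 endothelial member was lower. The fit that omitted WT13, WT16 and WT17 called 164 genes higher and 363 lower, shared 392 of the 687 calls, put 0 endothelial members lower and gave endothelial and mural medians of -0.092 and -0.11. It turned the cKO minus WT difference of the mural to endothelial log2 ratio to 0.096, against -0.33 with all libraries. That fit turned Flt1 to 0.0088, Ly6c1 to 0.99, Tie1 to 1.58, Tek to 0.63, Esam to 0.25, Robo4 to 0.99, Sox18 to 0.89, Ptprb to 0.63, Pdgfrb to 0.19, Vtn to 0.011, Abcc9 to 0.26, Nefm to 0.013 and Mbp to 0.055. Sox17 could not be fitted there, when WT13, WT16 or WT17 alone was left out, or with a mean CPM of at least 1. DESeq2 gave no adjusted p for 12 of the members tested.

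Leaving out each library in turn gave 170 to 388 genes higher and 264 to 557 lower, 0 to 3 endothelial and 0 mural members lower, an endothelial median of -1.32 to -0.44, a mural median of -1.10 to -0.63 and a mural to endothelial log2 ratio of -0.49 to -0.15. The genes that turned direction ranged as follows: Ly6c1 -1.54 to 0.80, Robo4 -1.91 to 0.65, Sox18 -1.48 to 0.55, Ptprb -1.13 to 0.046, Tek -0.64 to 0.35, Abcc9 -0.92 to 0.024, Abcg2 -0.059 to 0.22, Tagln -0.15 to 0.44, Col15a1 -0.071 to 0.065 and Mbp -0.039 to 0.055. No paired analysis was possible because the numbers in the sample titles are not shared between the genotypes. Total counts over all libraries ran from 178 for Emcn to 52319 for Eng among the members tested. For the low members a difference was not detectable at this depth unless it was large. Members with more counts could also vary widely among the WT libraries. Vtn (7877 counts) had a coefficient of variation of 64.0% there and Flt1 (4707 counts) of 93.5%.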
